A study of Mus with 15 samples.

Results

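The transcripts of adult hemoglobin were measured in RNA of the mouse abdominal aorta: Hba-a1 (ENSMUST00000093209) and Hba-a2 (ENSMUST00000093207) for the alpha chain, and Hbb-bs (ENSMUST00000023934) and Hbb-bt (ENSMUST00000098192) for the beta chain. They were chosen by identifier, and all 4 were found in the value table of every mouse, among 126719 transcripts listed for Control and AngII mice and 125443 listed for AngII+QDG mice. The 15 wild-type male C57BL/6 mice fell into 3 groups of 5, treated for 14 days. Control mice received saline by osmotic pump, AngII mice received Angiotensin-II by pump, and AngII+QDG mice received Angiotensin-II together with Qingda granule (QDG), an herbal formula, by gavage. The labels give 500 ng/kg/min for Angiotensin-II and 1.145 g/kg/d for QDG, while the description lines of single AngII mice count up from 500 to 504 ng/kg/min. Mice that did not receive QDG were given water by gavage according to the methods. Each library came from 1 mouse, and the mice are named here by the numbers in the labels.

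Hemoglobin carries oxygen in red blood cells as a tetramer of a pair of alpha and a pair of beta chains. Its mRNA is made in erythroid precursors, and young red cells without a nucleus (reticulocytes) still hold it, so that blood left in a vessel brings hemoglobin mRNA into a tissue sample. Alpha globin is also known to be made by endothelial cells of some arteries, where it limits the diffusion of nitric oxide to smooth muscle. Whether this holds in the abdominal aorta was not tested. In bulk RNA these sources cannot be told apart, nor can fewer cells be told apart from less RNA per cell. The methods describe removal of ribosomal RNA and then isolation of poly(A)-tailed mRNA for these libraries. They describe neither a step against globin mRNA nor rinsing of the vessel before RNA extraction.

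The unit is FPKM, in which fragments are divided by the length of the transcript and by all mapped fragments of the mouse, so levels can be set side by side between transcripts. Summed FPKM was 454587 to 547311 per mouse. Absolute depth is unknown, and relative depth, judged by the smallest values of each mouse, differed by 1.13-fold at most. The AngII+QDG mice were quantified on a transcript list of their own, which shares 108027 Ensembl transcripts with the list of the other mice, so the list and the QDG treatment cannot be told apart in any comparison with AngII+QDG mice. Gene names are not given beside the identifiers in the files, and the reference table used here holds no Ensembl transcript identifiers. The 13 marker lists for red cells, platelets, leukocytes, heme handling, endothelium, smooth muscle and other tissues were therefore not tested, and the tissue label was not checked against its markers.

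In the GRCm38 (mm10) assembly, RefSeq places Hba-a1 at chr11:32283672-32284486 and Hba-a2 at chr11:32296492-32297310. The alpha genes lie 12005 bases apart, with Hbq1b, a theta-like globin gene, between them. Hbb-bs lies at chr7:103826523-103827928 and Hbb-bt at chr7:103812524-103813923, 12599 bases apart with 0 annotated genes between them. These are the adult beta genes of the Hbb haplotype that C57BL/6 mice carry. Each pair consists of closely related copies, so fragments that match both members may have been divided between them by the authors' quantification, and the split within a pair is less certain than the sum of the pair.

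All 4 hemoglobin transcripts had an FPKM of 1 or more in all 15 mice. Hba-a1 ranked from 8 to 31 among all transcripts of a mouse, Hbb-bs from 11 to 67, Hba-a2 from 12 to 243 and Hbb-bt from 47 to 1413. Median FPKM over 15 mice fell in the order Hba-a1 (2344), Hbb-bs (1571), Hba-a2 (931.5) and Hbb-bt (495.9). Hba-a1 was higher than Hba-a2 in 15 of 15 mice, and Hbb-bs was higher than Hbb-bt in 15 of 15. Neighbours in the order were less separate: Hba-a1 exceeded Hbb-bs in 12 mice, Hbb-bs exceeded Hba-a2 in 12, and Hba-a2 exceeded Hbb-bt in 12. Hbb-bs was above Hba-a1 in Control mouse 3996 and in AngII+QDG mice 3981 and 3985, and Hba-a2 was above Hbb-bs in Control mice 4000, 4086 and 3994. Hbb-bt was above Hba-a2 in AngII mice 3986 and 4048 and in AngII+QDG mouse 3985.

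Hba-a1, the leading alpha transcript, stood at 1752, 4396, 2837, 3202 and 1907 FPKM in Control mice 3996, 4000, 4086, 3971 and 3994. In AngII mice 3988, 3989, 3986, 3987 and 4048 it stood at 4455, 2339, 986.9, 3482 and 2008 FPKM. In AngII+QDG mice 3981, 3982, 3983, 3984 and 3985 it stood at 2344, 2439, 1892, 2765 and 2013 FPKM. The highest Control and the highest AngII mouse were nearly level, and every AngII+QDG mouse lay within the range of the Control mice. The mean of the Control mice was 2819 ± 1073 FPKM (SD, n = 5), that of the AngII mice 2654 ± 1344 (SD, n = 5) and that of the AngII+QDG mice 2291 ± 348.5 (SD, n = 5).

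Hba-a2, the other adult alpha gene, stood at 503.8, 3274, 1421, 931.5 and 1345 FPKM in the Control mice, in the order given above. It was 1271, 979.5, 218.1, 947.8 and 500.7 FPKM in the AngII mice and 755.9, 1078, 469.2, 680.0 and 512.1 FPKM in the AngII+QDG mice. Control mouse 4000 had more than any other mouse and AngII mouse 3986 had less than any other. Means were 1495 ± 1060 FPKM (SD, n = 5) in Control mice, 783.4 ± 419.1 (SD, n = 5) in AngII mice and 699.1 ± 242.4 (SD, n = 5) in AngII+QDG mice. Without Control mouse 4000 the Control mean was 1050 ± 423.0 FPKM (SD, n = 4).

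Hbb-bs, the more abundant beta transcript, stood at 1794, 1510, 1149, 1391 and 785.5 FPKM in the Control mice. It was 2064, 1556, 603.9, 1571 and 1104 FPKM in the AngII mice and 2441, 1957, 1762, 2420 and 2976 FPKM in the AngII+QDG mice. Of the AngII+QDG mice, 4 of 5 were above every Control mouse and 3 of 5 were above every AngII mouse. Means were 1326 ± 381.1 FPKM (SD, n = 5) in Control mice, 1380 ± 551.0 (SD, n = 5) in AngII mice and 2311 ± 473.6 (SD, n = 5) in AngII+QDG mice.

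Hbb-bt, the less abundant beta transcript, stood at 271.0, 515.3, 495.9, 524.0 and 282.2 FPKM in the Control mice. It was 954.4, 664.9, 264.4, 645.5 and 509.7 FPKM in the AngII mice and 48.4, 476.9, 449.2, 423.2 and 930.7 FPKM in the AngII+QDG mice. Mouse 3981 of the AngII+QDG group was far below all others, while its Hbb-bs value of 2441 FPKM was the second highest of its group. The authors' pipeline also rebuilt transcripts from the reads, and whether fragments of the beta genes in this mouse were counted under a rebuilt transcript was not tested. Means were 417.7 ± 129.2 FPKM (SD, n = 5) in Control mice, 607.8 ± 251.2 (SD, n = 5) in AngII mice and 465.7 ± 313.3 (SD, n = 5) in AngII+QDG mice. Without mouse 3981 the AngII+QDG mean was 570.0 ± 241.5 FPKM (SD, n = 4).

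**Figure D1:**
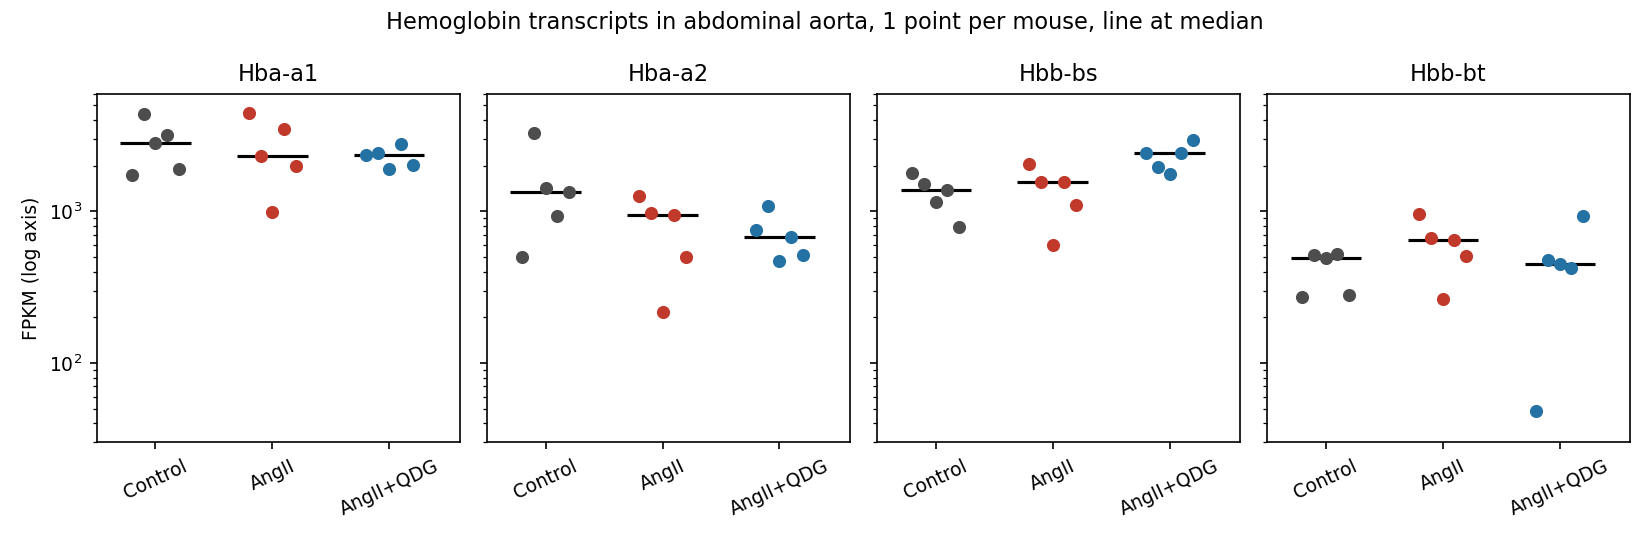
FPKM (log axis) of each hemoglobin transcript in the Control, AngII and AngII+QDG groups, 1 point per mouse, with a line at the group median. Hbb-bs lies higher in AngII+QDG mice (1762 to 2976 FPKM) than in most other mice, and 1 AngII+QDG mouse has an Hbb-bt value of 48.4 FPKM.

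Together the hemoglobin transcripts made up about a hundredth of summed FPKM in each group, and the groups overlapped widely. The share was 0.896%, 1.90%, 1.19%, 1.23% and 0.834% in the Control mice, with a mean of 1.21% ± 0.423 (SD, n = 5). It was 1.68%, 1.012%, 0.435%, 1.29% and 0.824% in the AngII mice, with a mean of 1.05% ± 0.469 (SD, n = 5). In the AngII+QDG mice it was 1.11%, 1.17%, 0.951%, 1.38% and 1.19%, with a mean of 1.16% ± 0.156 (SD, n = 5). The difference between the lowest mouse (AngII mouse 3986) and the highest (Control mouse 4000) was 4.36-fold. Within groups the highest mouse exceeded the lowest by 2.28-fold in Control, 3.85-fold in AngII and 1.45-fold in AngII+QDG mice. No p is given for these sums over the transcripts. AngII mouse 3986 also had 92523 transcripts above 0, more than the other AngII mice, and the lowest estimated relative depth of all mice, 0.927 against 1 in Control mouse 3996. Without it the AngII mean was 1.20% ± 0.370 (SD, n = 4). Since FPKM is relative to all mapped fragments, hemoglobin takes part in the scale of every other transcript. Its largest and smallest shares of summed FPKM would move all other transcripts by 1.49% between those mice if values were scaled by that sum. Its share of mapped fragments, which sets the FPKM scale, is not given by these values.

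**Figure D2:**
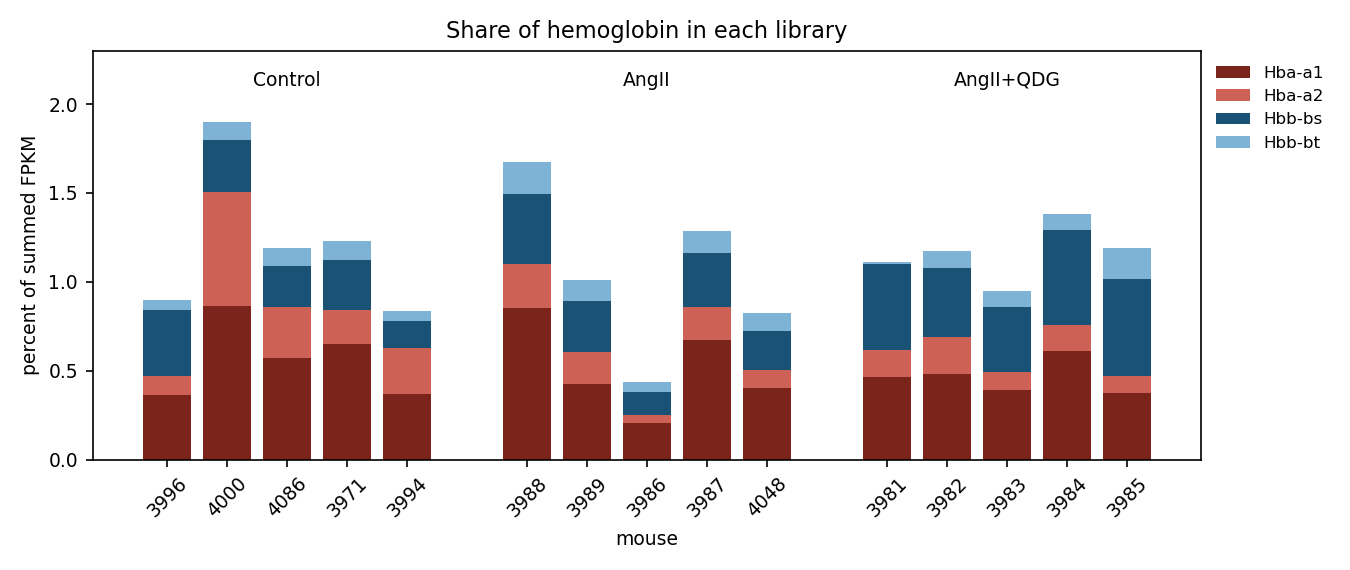
Share of each hemoglobin transcript in summed FPKM (percent), stacked for each of the 15 mice and grouped as Control, AngII and AngII+QDG. The totals run from 0.435% in AngII mouse 3986 to 1.90% in Control mouse 4000, and the AngII+QDG mice lie between 0.951% and 1.38%.

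AngII mice were compared with Control mice to ask whether infusion of Angiotensin-II went with more or less hemoglobin RNA in the aorta. None of the 4 transcripts passed the test in either direction. Differences were tested with limma on log2(FPKM + 1) across the 27327 transcripts that reached an FPKM of 1 in 5 or more of the 10 mice, and p-values were adjusted over all of them. At an adjusted p below 0.05, 0 of 4 hemoglobin transcripts and 2 of the transcripts tested (0.00732%) were called. When a 2-fold difference and an unadjusted p below 0.05 were asked for, 0 of 4 were called, where 1.5% of all transcripts were. At an unadjusted p below 0.05 alone the count was also 0 of 4, against 4.75% of all.

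The log2 fold change of Hba-a1 between AngII and Control mice was -0.18 (95% interval -1.10 to 0.74, limma adjusted p = 0.996), and it was 0.13 without AngII mouse 3986 and 0.00 without Control mouse 4000. For Hba-a2 it was -0.90 (95% interval -2.17 to 0.37, limma adjusted p = 0.995), and 2 of 5 AngII mice were below every Control mouse. Without AngII mouse 3986 it was -0.50 and without Control mouse 4000 it was -0.55. The fold change of Hbb-bs was 0.00 on the log2 scale (95% interval -0.76 to 0.75, limma adjusted p = 1.000), with a sign that turned under another scaling. Hbb-bt had a log2 fold change of 0.49 (95% interval -0.28 to 1.25, limma adjusted p = 0.995), with 3 of 5 AngII mice above every Control mouse, and it was 0.29 without AngII mouse 3988. All 4 intervals included 0 with all mice. Without AngII mouse 3986 the log2 fold change of Hbb-bt was 0.76 (95% interval 0.13 to 1.38, limma adjusted p = 0.682), which makes 1 of 4 called at an unadjusted p below 0.05, against 6.90% of all transcripts in that fit. The median log2 fold change was -0.09 over the 4 members and 0.02 over all transcripts tested. On the share of summed FPKM in place of FPKM, 2-sided exact permutation tests gave p = 0.659 for Hba-a1, p = 0.143 for Hba-a2, p = 0.944 for Hbb-bs and p = 0.190 for Hbb-bt, where 5 mice against 5 can reach 0.00794.

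AngII+QDG mice were compared with AngII mice to ask what changed when QDG was added, a contrast in which the transcript list changed as well. Hbb-bs had the smallest p of the hemoglobin transcripts and did not pass adjustment over all transcripts. Its log2 fold change was 0.83 (95% interval 0.14 to 1.53, limma adjusted p = 0.453 over 21081 shared Ensembl transcripts). A 2-sided exact permutation test on the 10 mice gave p = 0.0238 for its FPKM and p = 0.0238 for its share of summed FPKM, without adjustment for the 4 transcripts and 3 comparisons looked at. Hbb-bt had a log2 fold change of -0.75 (95% interval -2.29 to 0.80, limma adjusted p = 0.965), which was -0.06 without AngII+QDG mouse 3981. The alpha transcripts were nearly level: the log2 fold change was -0.05 for Hba-a1 (95% interval -0.85 to 0.75, limma adjusted p = 0.999) and 0.01 for Hba-a2 (95% interval -1.002 to 1.02, limma adjusted p = 0.999), which was -0.14 with each mouse scaled to its 75th percentile. Leaving out 1 mouse turned the sign of both, with ranges of -0.36 to 0.18 for Hba-a1 and -0.39 to 0.24 for Hba-a2. The 75th percentile scaling gave -0.20 for Hba-a1, 0.68 for Hbb-bs and -0.90 for Hbb-bt and moved the median of all transcripts to -0.12. At an adjusted p below 0.05, 0 of 4 were called, against 1.73% of all transcripts tested. With a 2-fold difference and an unadjusted p below 0.05, 0 of 4 were called, against 3.53%. At an unadjusted p below 0.05 alone, 1 of 4 was called, against 7.86%. That call was lost without AngII+QDG mouse 3985, where Hbb-bs had a log2 fold change of 0.74 (95% interval -0.02 to 1.49, limma adjusted p = 0.609) and 8.40% of all transcripts were called. The median log2 fold change was -0.02 over the 4 members and 0.00 over all transcripts tested.

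AngII+QDG mice were also compared with Control mice, again across the change of transcript list. Hbb-bs again had the smallest p of the hemoglobin transcripts without passing adjustment, with a log2 fold change of 0.83 (95% interval 0.29 to 1.37, limma adjusted p = 0.198 over 21250 transcripts). The exact permutation test, 2-sided, gave p = 0.0159 for its FPKM. Hba-a2 had a log2 fold change of -0.89 (95% interval -1.88 to 0.09, limma adjusted p = 0.642), and the exact permutation p was 0.119. Hba-a1 had a log2 fold change of -0.23 (95% interval -0.81 to 0.36, limma adjusted p = 0.937). For Hbb-bt it was -0.26 (95% interval -1.75 to 1.23, limma adjusted p = 0.975), and it was 0.43 without AngII+QDG mouse 3981, so its direction rests on that mouse. At an adjusted p below 0.05, 0 of 4 were called, against 1.81% of all transcripts. With a 2-fold difference and an unadjusted p below 0.05, 0 of 4 were called, against 3.64%. At an unadjusted p below 0.05 alone, 1 of 4 was called, against 8.98%. The log2 fold change of Hba-a2 was -0.54 without Control mouse 4000 (limma adjusted p = 0.855). It was called as well without Control mouse 3996, where its log2 fold change was -1.22 (95% interval -2.07 to -0.36, limma adjusted p = 0.319), and without AngII+QDG mouse 3982, where it was -1.06 (95% interval -2.11 to -0.01, limma adjusted p = 0.600). Of all transcripts, 7.87% and 8.14% were called in those fits. The median log2 fold change was -0.25 over the 4 members and 0.02 over all transcripts tested. The AngII+QDG mice enter this comparison and the one with AngII mice, so the Hbb-bs values in both rest on the same 5 libraries and the same transcript list. The Control and the AngII mice likewise each enter a pair of comparisons.

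**Figure D3:**
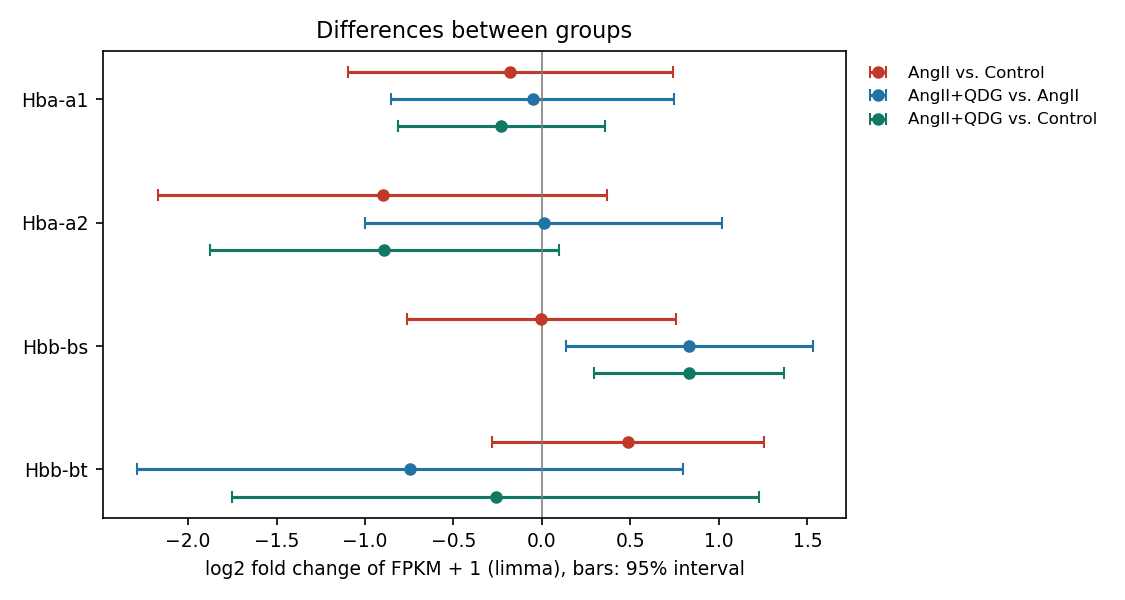
Log2 fold change of FPKM + 1 for each hemoglobin transcript in the 3 comparisons, with points at the limma estimate and bars for the 95% interval. The intervals of Hbb-bs lie above 0 in both comparisons with AngII+QDG mice (0.14 to 1.53 and 0.29 to 1.37), the first of them reaching -0.02 without AngII+QDG mouse 3985, and all other intervals include 0.

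The balance between the chains was described next, as ratios within a mouse, which do not depend on how that mouse was scaled. Summed alpha FPKM exceeded summed beta FPKM in 14 of 15 mice, the exception being AngII+QDG mouse 3985. The alpha to beta ratio was 1.09, 3.79, 2.59, 2.16 and 3.05 in the Control mice, with a mean of 2.53 ± 1.007 (SD, n = 5). It was 1.90, 1.49, 1.39, 1.998 and 1.56 in the AngII mice, with a mean of 1.67 ± 0.266 (SD, n = 5). In the AngII+QDG mice it was 1.25, 1.44, 1.07, 1.21 and 0.646, with a mean of 1.12 ± 0.299 (SD, n = 5). Thus 4 of 5 Control mice lay above every AngII mouse and 4 of 5 AngII+QDG mice lay below every AngII mouse. Control mouse 3996, at 1.09, lay among the AngII+QDG mice.

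The sums of both chains are given here without a test. Summed alpha FPKM was 4314 ± 2041 (SD, n = 5) in Control, 3437 ± 1738 (SD, n = 5) in AngII and 2990 ± 526.4 (SD, n = 5) in AngII+QDG mice, with ranges that overlap. Summed beta FPKM was 1743 ± 411.9 (SD, n = 5), 1988 ± 800.5 (SD, n = 5) and 2777 ± 671.0 (SD, n = 5). The beta sum of AngII+QDG mice (2212 to 3907) did not overlap that of Control mice (1068 to 2065), and it overlapped that of AngII mice (868.3 to 3019). For the FPKM of single transcripts, groups that do not overlap occurred in 3.24% of those tested between AngII+QDG and Control mice and in 0 of the 4 hemoglobin transcripts. No such share was computed for sums.

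Within the beta pair, Hbb-bt was 0.440 ± 0.0223 of Hbb-bs (SD, n = 5) in AngII mice, from 0.411 to 0.462. This was the steadiest of the ratios, even though the levels of both transcripts differed more than 3-fold between the same mice. The ratio was 0.151, 0.341, 0.432, 0.377 and 0.359 in the Control mice and 0.0198, 0.244, 0.255, 0.175 and 0.313 in the AngII+QDG mice. All 5 AngII+QDG mice and 4 of 5 Control mice lay below every AngII mouse. Without mouse 3981 the AngII+QDG ratios ran from 0.175 to 0.313 and still did not overlap those of AngII mice. Among single transcripts, 2.86% of those tested did not overlap between AngII+QDG and AngII mice, and no such share was computed for ratios. Control mouse 3996, the lowest of its group at 0.151, again lay among the AngII+QDG mice.

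Within the alpha pair, Hba-a1 was 2.33 ± 1.06 times Hba-a2 (SD, n = 5) in Control mice, 3.62 ± 0.791 times (SD, n = 5) in AngII mice and 3.48 ± 0.787 times (SD, n = 5) in AngII+QDG mice. The Control mice fell apart into 3.48 and 3.44 in mice 3996 and 3971 and 1.34, 1.996 and 1.42 in mice 4000, 4086 and 3994. The AngII mice ran from 2.39 to 4.52 and the AngII+QDG mice from 2.26 to 4.07. The lowest ratios therefore all belonged to Control mice, while the groups overlapped. How fragments common to both copies were assigned was not tested, nor was its part in any of these ratios.

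**Figure D4:**
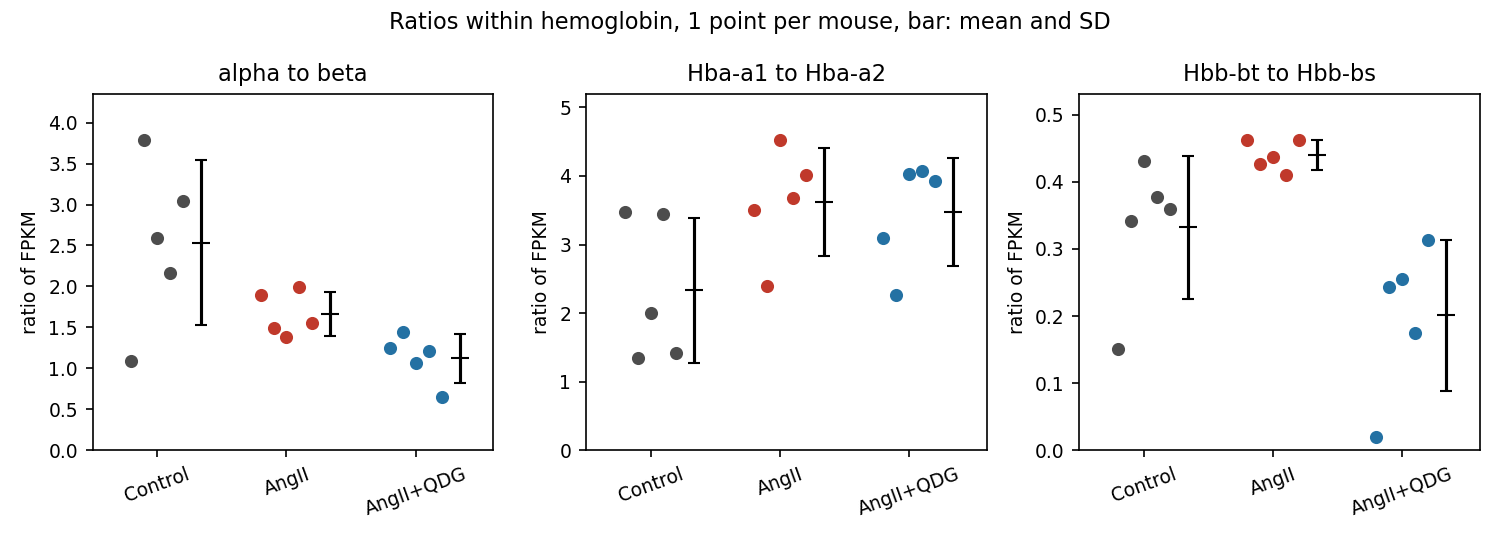
Ratios of FPKM within each mouse for alpha to beta, Hba-a1 to Hba-a2 and Hbb-bt to Hbb-bs in the Control, AngII and AngII+QDG groups, with 1 point per mouse and bars for the mean and SD. The Hbb-bt to Hbb-bs ratio of AngII mice stays between 0.411 and 0.462, above every AngII+QDG mouse.

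Among the 4 transcripts, the spread between mice was largest for Hba-a2 in Control and AngII mice and for Hbb-bt in AngII+QDG mice. As the SD of log2(FPKM + 1) over 5 mice, Hba-a1 had 0.55 in Control, 0.83 in AngII and 0.22 in AngII+QDG mice. The SD of Hba-a2 was 0.98, 1.02 and 0.48, and that of Hbb-bs was 0.45, 0.68 and 0.30. Hbb-bt had 0.49, 0.69 and 1.61. The median SD over 23914 shared Ensembl transcripts was 0.37, 0.36 and 0.37 in the 3 groups, and over the 500 most abundant of them it was 0.33, 0.33 and 0.33. Among those 500, the members lay between the 73.4 and 94.2 percentile of SD in Control mice and between the 92.8 and 98.2 percentile in AngII mice. In AngII+QDG mice they spread out from the 19.4 percentile for Hba-a1 to the 98.8 percentile for Hbb-bt. With all mice, each hemoglobin transcript was thus more variable than most of the 500 in Control and AngII mice. In AngII+QDG mice this held for Hba-a2 and Hbb-bt and not for Hba-a1 and Hbb-bs. Single mice carried much of this spread. Without AngII mouse 3986 the SDs of the AngII mice were 0.53 for Hba-a1, 0.57 for Hba-a2, 0.37 for Hbb-bs and 0.37 for Hbb-bt, between the 64.4 and 89.4 percentile of the 500. Without AngII+QDG mouse 3981 the SD of Hbb-bt was 0.53 (84.4 percentile). Without AngII+QDG mouse 3982 that of Hba-a2 was 0.33 (48.6 percentile). Without Control mouse 3994 that of Hbb-bs was 0.27 (46.8 percentile), below the median of the 500.

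Whether the members varied together was examined over the 15 mice on log2(FPKM + 1), for 6 pairs. The alpha transcripts went together, with Pearson's r = 0.82 (permutation test, p = 0.00040, Benjamini-Hochberg adjusted over the 6 pairs 0.00240) and Spearman's rho = 0.69 (permutation test, p = 0.00554, adjusted 0.0332). Without mice 3986 and 3988, the farthest from the median of Hba-a1, r was 0.73, and with each group centred on its mean it was 0.85. The beta transcripts did not go together over all mice, with r = 0.08 (permutation test, p = 0.775, adjusted 0.775) and rho = 0.15 (permutation test, p = 0.601, adjusted 0.721). Without mouse 3981, an omission chosen after seeing the data, their r was 0.62 (permutation test, p = 0.0173). Without mice 3986 and 3994, the farthest from the median of Hbb-bs, r was -0.19.

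For the alpha transcripts against the beta transcripts, r ran from 0.13 to 0.43 and rho from -0.08 to 0.59, and the adjusted p of r was from 0.314 to 0.775 and that of rho from 0.0735 to 0.782 over the 4 pairs (permutation tests). Without mouse 3981, again an omission chosen after seeing the data, r of Hba-a1 and Hbb-bt was 0.62 (permutation test, p = 0.0171). Hba-a1 and Hbb-bs, the leading member of each pair, had r = 0.43 over all mice (permutation test, p = 0.105), 0.69 with each group centred on its mean (permutation test, p = 0.00447), and -0.03 without mice 3986 and 3988. Centred values without those mice, a setting added after seeing the data, gave 0.29 (permutation test, p = 0.336). Leaving out the extremes of Hba-a1 narrows its range, so these values do not settle whether the relation holds without them. All mice share the library protocol, and the AngII+QDG mice differ from the others in transcript list.

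**Figure D5:**
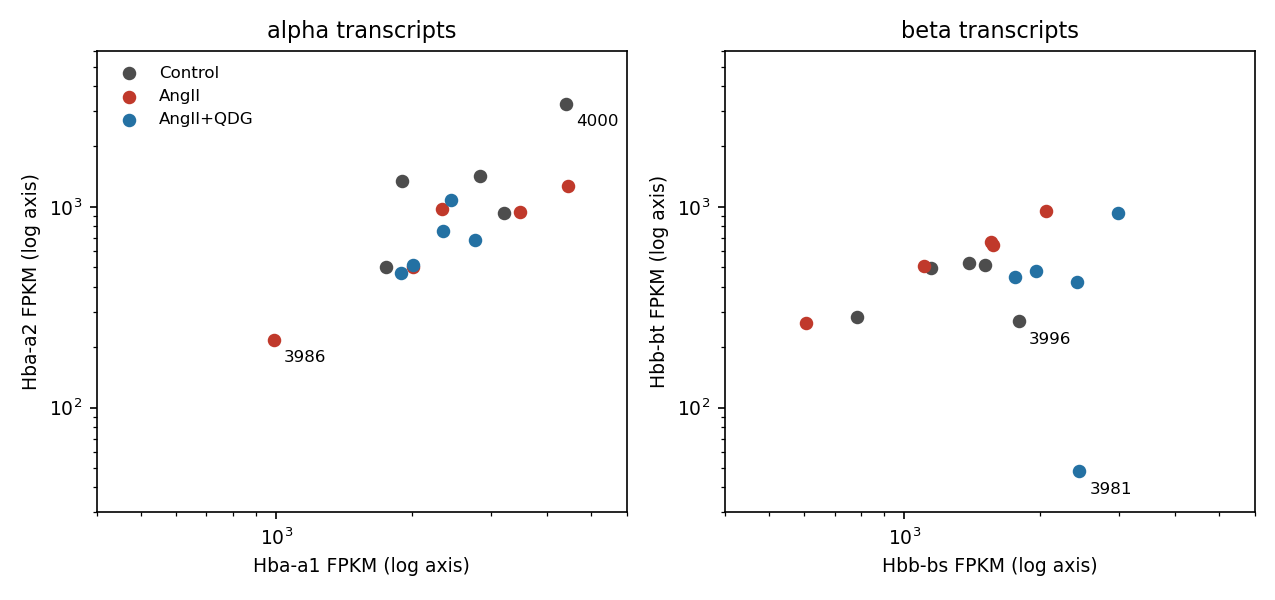
FPKM of Hba-a2 against Hba-a1 and of Hbb-bt against Hbb-bs (log axes), 1 point per mouse, coloured by group. The alpha transcripts rise together from mouse 3986 to mouse 4000, while mouse 3981 with an Hbb-bt value of 48.4 FPKM stands apart from the other mice in the beta panel.

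The other transcripts of the aorta were ordered by how closely they followed summed hemoglobin over the 15 mice, by Pearson's r of log2(FPKM + 1), as a description without a test. Over 23910 shared Ensembl transcripts the median r was -0.01, and 90% of them lay between -0.40 and 0.40. The 10 most alike had r from 0.78 to 0.88. The closest was ENSMUST00000066337 (r = 0.88), which ran from 4.85 to 21.8 FPKM with its lowest value in AngII mouse 3986 and its highest in AngII mouse 3988. The next was ENSMUST00000132846 (r = 0.85), listed at 0 in AngII mouse 3986 and up to 520.1 FPKM in Control mouse 3971. Without mice 3986 and 4000, the extremes of summed hemoglobin, r was 0.79 and 0.59 for these transcripts. At the other end, ENSMUST00000196397 had r = -0.89 (-0.94 without those mice) and ENSMUST00000005798 had r = -0.81 (-0.52 without them). The former lay near the floor, from 0 to 3.04 FPKM with a median of 0.90, and the latter ran from 6.17 to 21.0 FPKM. The transcripts named were the ends of the whole ordering, and the genes behind these identifiers are not named in the files.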

How the data were processed

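RNA of the abdominal aorta of 15 mice was used, with groups and mouse numbers taken from the labels. According to the methods, the authors removed poor reads with NGSQC, used HISAT2 to place the rest on GRCm38/mm10 and used StringTie to rebuild and measure transcripts. Their deposited tables hold 1 FPKM value per transcript and mouse, so read counts were not used and precision rests on the 5 mice per group. The methods do not name the unit, which follows from the description of the tables as FPKM and from values that are neither whole nor scaled to a fixed total.

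Hemoglobin rows were found by identifier. The pairing of identifiers with gene symbols came with the definition of the transcript set, and gene positions came from RefSeq (GRCm38.p6) by symbol. Sequences were not used here. The members and lists were chosen with earlier results of these data known. The 10 mice of a comparison were fitted with limma 3.58.1 (lmFit, eBayes with trend; R 4.3.3) after a log2(FPKM + 1) step, keeping transcripts that reached an FPKM of 1 in 5 mice or more. The full list served for AngII vs. Control, and the shared Ensembl transcripts served for the comparisons with AngII+QDG mice. P-values were adjusted by Benjamini-Hochberg over all transcripts tested, and the fit was tested on simulated data. Exact permutation tests used all 252 divisions of 10 mice, and correlations 100000 resamples (numpy 2.4.6, Python 3.11.15). Transcripts outside the set were named by their correlation with summed hemoglobin, up to 2 in each direction. The alternatives tried were a stricter filter, no filter, a pseudocount of 0.1, a joint fit of all 3 groups, 2 scalings, linear FPKM, other denominators and leaving out mice. Figures were drawn with matplotlib 3.10.9.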

Additional observations from a re-analysis of the deposited data

Results flagged for a closer look

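Of 33 sets of 5 values, each from 1 group, 2 held a lowest or highest mouse whose distance to the next exceeded 0.71 of the whole range, and chance gives about 1 in 20. Hbb-bt was 48.4 FPKM in AngII+QDG mouse 3981, and the other 4 mice of its group had 423.2 to 930.7 FPKM. Its distance was taken on log2(FPKM + 1). The other hemoglobin transcripts of this mouse lay within the range of its group. AngII mouse 3986, which had the lowest hemoglobin share of all 15 mice, had 92523 transcripts above 0, the highest of its group.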

How the results depend on the processing

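None of the 12 tests of a hemoglobin transcript in a comparison had an adjusted p below 0.05 under any alternative. For the changes given here the cause was not tested. With each mouse scaled to its 75th percentile, the log2 fold change turned to 0.0304 for Hbb-bs in AngII vs. Control and to -0.14 for Hba-a2 in AngII+QDG vs. AngII, where that scaling moved the median of all transcripts from 0.00 to -0.12. On linear FPKM the difference was 54.1 for Hbb-bs in AngII vs. Control, -84.3 for Hba-a2 in AngII+QDG vs. AngII and 48.0 for Hbb-bt in AngII+QDG vs. Control, each with the opposite sign. Leaving out the 2 mice farthest from the median gave r of -0.0255 for Hba-a1 and Hbb-bs, -0.407 for Hba-a2 and Hbb-bs, and -0.188 for Hbb-bs and Hbb-bt. Centring on group means gave 0.695 for Hba-a1 and Hbb-bs, and centring without the 2 mice gave -0.158 for Hba-a2 and Hbb-bs. Without mouse 3981 r was 0.622 for Hba-a1 and Hbb-bt and 0.620 for Hbb-bs and Hbb-bt.

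With 1 mouse left out in turn, log2 fold changes in AngII vs. Control ran from -0.41 to 0.13 for Hba-a1, -1.23 to -0.50 for Hba-a2, -0.18 to 0.27 for Hbb-bs and 0.29 to 0.76 for Hbb-bt. In AngII+QDG vs. AngII they ran from -0.36 to 0.18, -0.39 to 0.24, 0.56 to 1.008 and -1.11 to -0.06, and in AngII+QDG vs. Control from -0.38 to -0.05, -1.22 to -0.54, 0.66 to 0.95 and -0.63 to 0.43. The adjusted p of Hbb-bs then ran from 0.315 to 0.657 and from 0.169 to 0.394 in the comparisons with AngII+QDG mice.

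Counts over all transcripts moved more. In the main limma fits made here, 2, 365 and 384 transcripts had an adjusted p below 0.05 in the 3 comparisons and 409, 744 and 774 passed the 2-fold criterion. In AngII+QDG vs. AngII the split was 216 higher and 149 lower, and 175 and 196 with the 75th percentile scaling (427 and 317 against 338 and 440 by the 2-fold criterion). For AngII+QDG vs. Control the split was 220 and 164, and 191 and 202 with that scaling (442 and 332 against 378 and 394). When all 10 mice had to reach an FPKM of 1, the counts at an adjusted p below 0.05 were 1, 87 and 106, in the order AngII vs. Control, AngII+QDG vs. AngII and AngII+QDG vs. Control, and 91, 209 and 235 passed a fold change of 2 at an unadjusted p below 0.05. For AngII vs. Control the count was 1 without a filter, 4 with a pseudocount of 0.1 and 0 with all 3 groups in 1 limma fit (1107 at an unadjusted p below 0.05). Past the fold change there were 652 with a pseudocount of 0.1 and 244 among shared Ensembl transcripts. Leaving out 1 mouse gave 0 to 6, 215 to 281 and 200 to 288 with an adjusted p below 0.05. In those fits lower calls outnumbered higher ones when 1 AngII+QDG mouse was left out (119 to 133 against 95 to 114, and 115 to 129 against 79 to 105). There the filter of 5 mice drops transcripts present only in the group reduced to 4. On the transcripts tested with all mice, added after seeing the data, the counts were 0 to 6, 305 to 339 and 301 to 356. In the comparisons with AngII+QDG mice, higher calls then outnumbered lower ones whichever mouse was left out, with 173 to 199 against 128 to 140 in AngII+QDG vs. AngII and 168 to 207 against 132 to 149 in AngII+QDG vs. Control when 1 AngII+QDG mouse was left out. No paired analysis was possible because the labels number the mice individually and the replicate numbers 1 to 5, given in accession order, pair no mice.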
